A study of Mus musculus with 12 samples.

Results

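The genes described here are interferon beta (Ifnb1), the receptor chains for type I interferon (Ifnar1 and Ifnar2) and interferon gamma (Ifngr1 and Ifngr2), the Janus kinases Tyk2, Jak1 and Jak2, and the feedback inhibitors Usp18 and Socs1. These 10 genes were taken as a list of symbols and matched through the GENCODE mouse annotation (GRCm38) to the gene identifiers of a count table of 48526 genes. All 10 were found and all 10 passed the filter on low counts, which kept 15523 genes. Ifnb1 passed it only through the libraries of stimulated cells. They were followed across 4 groups of bone marrow-derived macrophages (BMDMs), with the question of whether a ligand, a receptor chain, a kinase or a feedback inhibitor moved with the lower interferon-stimulated genes of unstimulated mutant cells.

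The BMDMs were grown from bone marrow in medium with L929-conditioned medium and came from mice homozygous for a deletion of HSS9 (TNF-9), an enhancer upstream of Tnf (KO), or from HSS9+/+ controls that the labels call littermates (WT). Cells of each genotype received PBS (UT) or lipopolysaccharide (LPS, a bacterial cell wall component read by Toll-like receptor 4) and were collected at 6 hr, with 3 libraries for each combination of genotype (WT or KO) and treatment (UT or LPS). The methods of the study give male mice of 7 to 10 weeks for all animals, purchased C57BL/6 mice, and a KO line kept by homozygous breeding, so a shared litter and genetic background of the 2 genotypes is not certain from the sources used here. Neither the labels nor the methods say whether the 3 libraries of a group came from separate mice, and the p-values measure the spread between libraries, which may be technical.

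Interferon beta is secreted by macrophages after Toll-like receptor 4 signals through the adaptor Ticam1 to the kinase Tbk1 and the factor Irf3. It binds a receptor of Ifnar1 and Ifnar2 that carries Tyk2 and Jak1, which activate STAT factors that join Irf9 to switch on interferon-stimulated genes; interferon gamma uses Ifngr1 and Ifngr2 with Jak1 and Jak2. Macrophages also keep a low tonic interferon signal without a stimulus, and Usp18, which displaces Jak1 from Ifnar2, and Socs1, which blocks the kinases, are themselves target genes of the pathway.

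The libraries held between 26154533 and 36423921 counts. Tnf, the gene that the deleted enhancer lies upstream of, measured 14.8 to 16.2 CPM (counts scaled to a common library size, so that levels of 1 gene can be compared between libraries) in WT UT against 9.10 to 10.5 CPM in KO UT, and 826 to 938 CPM in WT LPS against 422 to 450 CPM in KO LPS. Short structured RNAs such as small nuclear and nucleolar RNAs took 3.00 to 3.25% of counts in WT UT but 6.64 to 7.98% in KO UT, 4.04 to 6.89% in WT LPS and 3.23 to 3.43% in KO LPS. The 6 macrophage markers (Adgre1, Csf1r, Cd68, Itgam, Mertk and Lyz2) were detected in every group. They summed to 28141 to 29162 CPM in WT UT and 32324 to 33405 CPM in KO UT, and to 22858 to 24263 CPM in WT LPS and 25165 to 26715 CPM in KO LPS. The sums were thus higher in the KO libraries with either treatment, but they rest mostly on 1 gene. It reached 1127093 counts in a WT UT library, and all 6 had 3864528 counts over the 3 libraries. With an adjusted p below 0.05, 4 of the 6 were higher and 0 lower in KO UT (log2 fold changes of the 6 from -0.13 to 0.40). In KO LPS 3 were higher and 0 lower (0.11 to 0.36). Of 6 neutrophil markers, Ly6g was at 0 in every library, and the list summed to 18.4 to 19.8 CPM in WT UT, 40.7 to 46.1 in KO UT, 50.4 to 79.4 in WT LPS and 67.2 to 76.5 in KO LPS. After LPS this sum was mostly 1 gene, with up to 1428 counts in a WT LPS library and 4363 for the list over the 3 libraries. Of the 5 that were tested, 4 were higher and 0 lower in KO UT, and 1 was higher and 0 lower in KO LPS. With LPS 2 rose and 2 fell in WT. The 6 stromal markers summed to 8.21 to 8.34 CPM in WT UT and 11.6 to 12.5 in KO UT, and to 24.9 to 26.6 in WT LPS and 37.2 to 38.0 in KO LPS. In WT LPS this sum was mostly 1 gene, with up to 531 counts in a library and 1806 for the list over the 3 libraries. With LPS in WT 1 of the 6 rose and 2 fell, with a median log2 fold change of -0.29. Between genotypes 2 were higher and 0 lower in KO UT, and 5 were higher and 0 lower in KO LPS. B cell markers did not exceed 0.150 CPM in sum, T and NK cell markers did not exceed 0.382 CPM, and the dendritic cell list, which holds the interferon-stimulated gene Bst2, summed to 293 to 299 CPM in WT UT, 298 to 308 in KO UT, 1034 to 1365 in WT LPS and 1027 to 1140 in KO LPS. The part of these differences in the results was not tested, and in bulk RNA fewer cells of a type and less RNA per cell cannot be told apart.

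In unstimulated cells the ligand was near the limit of detection in both genotypes. Ifnb1 (ENSMUSG00000048806.4, chr4:88522025-88522774, minus strand) was counted 2, 0 and 3 times in WT UT replicates 1, 2 and 3, and 0 times in each replicate of KO UT. Every UT library was thus at or under the 3 counts that a count of 0 allows, which stand for 0.0666 CPM in WT UT and 0.0832 CPM in KO UT, so no fold is given and a difference was not detectable at this depth (adjusted p = 0.205, edgeR quasi-likelihood test with Benjamini-Hochberg adjustment over all genes tested, as for every adjusted p here).

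The other interferon genes were counted at or near 0 as well. Of 20 further interferon genes (interferon alpha genes, epsilon, kappa, gamma, lambda and zeta), 0 passed the filter on low counts, so no test was made, and the highest count in a library was 7. They summed to 15 counts over the WT UT libraries, 11 of them from Ifnk, and to 2 in KO UT, 5 in WT LPS and 4 in KO LPS. Since interferon alpha genes are near copies of each other, and the handling of reads that map to several of them is not given in the sources used here, their counts may be too low. Ifnk also overlaps Mob3b on the opposite strand, and with the strand setting of the counting not given the few Ifnk counts cannot be assigned with certainty.

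The receptor chains were present at rest, and 3 of the 4 (Ifnar1, Ifnar2 and Ifngr1) were higher in KO UT. Of the 6 macrophage markers, 4 were also past the threshold and higher there, and 2 were not past it. Ifnar1 (ENSMUSG00000022967.12, chr16:91485238-91507441, plus strand), the chain that carries Tyk2, measured 213, 208 and 218 CPM in WT UT and 248, 239 and 239 CPM in KO UT, a log2 fold change of 0.18 (SE 0.049, adjusted p = 0.00539). Each KO UT library lay above each WT UT library. How many of all genes are separated in this way was not counted, so a lack of overlap is a description here and below. With the scaling of the relative log expression method in place of TMM the difference was 0.11 and missed the threshold (adjusted p = 0.0783).

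Ifnar2 (ENSMUSG00000022971.18, chr16:91372783-91405589, plus strand), the chain to which Usp18 and Jak1 bind, measured 89.7, 90.0 and 89.4 CPM in WT UT and 117, 113 and 111 CPM in KO UT. The groups did not overlap, and the log2 fold change was 0.34 (SE 0.052, adjusted p = 1.50e-05). Ifngr1 (ENSMUSG00000020009.12, chr10:19591949-19610229, plus strand), the ligand-binding chain of the interferon gamma receptor, measured 267, 261 and 268 CPM in WT UT and 340, 318 and 336 CPM in KO UT, also without overlap (log2 fold change 0.32, SE 0.050, adjusted p = 2.14e-05). Ifngr2 (ENSMUSG00000022965.7, chr16:91547072-91565623, plus strand), its partner chain, measured 179, 174 and 179 CPM in WT UT and 196, 191 and 192 CPM in KO UT. Its groups did not overlap either, but its log2 fold change of 0.12 (95% interval 0.019 to 0.22) missed the threshold (adjusted p = 0.0747).

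Several of these chains lie next to each other. Ifnar2, Il10rb, Ifnar1 and Ifngr2 follow each other within 192841 bp of chromosome 16, and Il10rb, the shared chain of the receptors for interleukin 10 and interferon lambda, lies 574 bp beyond Ifnar2. Il10rb measured 106 to 109 CPM in WT UT and 140 to 148 CPM in KO UT (log2 fold change 0.42, SE 0.051, adjusted p = 8.26e-07). An annotated transcript unit on the same strand, Gm21970, overlaps both Ifnar2 and Il10rb, so reads on these exons are uncertain between them. Ifngr1, which lies on another chromosome, differed to a similar extent, 0.32 on the log2 scale.

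The kinases were level or lower in KO UT. Jak2 (ENSMUSG00000024789.12, chr19:29251828-29313080, plus strand), which serves the interferon gamma receptor and several growth factor receptors, measured 49.5, 54.4 and 49.2 CPM in WT UT and 42.5, 40.9 and 45.5 CPM in KO UT. All KO UT values lay below all WT UT values, with a log2 fold change of -0.25 (SE 0.070, adjusted p = 0.0100). This call was lost without WT UT replicate 2 (adjusted p = 0.0709) or KO UT replicate 2 (adjusted p = 0.0600), and with the share of short RNAs as a covariate the value was 0.25 (adjusted p = 0.177).

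Tyk2 (ENSMUSG00000032175.10, chr9:21104068-21131243, minus strand) measured 83.1, 81.7 and 79.2 CPM in WT UT and 76.5, 75.3 and 68.5 CPM in KO UT, and its log2 fold change of -0.15 (95% interval -0.27 to -0.030) missed the threshold (adjusted p = 0.0587). Jak1 (ENSMUSG00000028530.14, chr4:101152367-101265282, minus strand), the kinase common to both receptors, measured 207, 219 and 216 CPM in WT UT and 196, 196 and 205 CPM in KO UT. The log2 fold change of Jak1 was -0.11 (95% interval -0.24 to 0.025, adjusted p = 0.240), although the groups did not overlap. Both kinases passed the threshold with the scaling of the relative log expression method, at -0.22 for Tyk2 (adjusted p = 0.00440) and -0.18 for Jak1 (adjusted p = 0.0334), and with the share of short RNAs as a covariate Jak1 was at 0.42 (adjusted p = 0.00746). Jak1 overlaps Raver2 and Tyk2 overlaps 1700084C06Rik on the opposite strand.

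Of the feedback inhibitors, Usp18 was lower in KO UT and Socs1 had few counts in both genotypes. Usp18 (ENSMUSG00000030107.10, chr6:121245906-121270917, plus strand) measured 55.3, 56.5 and 60.7 CPM in WT UT and 34.8, 36.7 and 35.6 CPM in KO UT. The KO UT values were 0.621 of the WT UT level, a log2 fold change of -0.69 (SE 0.057, adjusted p = 1.06e-09). Its adjusted p stayed past the threshold under all 11 other settings tried and without any 1 library, with log2 fold changes from -0.71 to -0.65 when a library was left out. Socs1 (ENSMUSG00000038037.4, chr16:10782240-10785536, minus strand) was barely expressed at rest, with 15, 21 and 23 counts in WT UT and 22, 19 and 18 counts in KO UT. These correspond to 0.351, 0.463 and 0.489 CPM against 0.636, 0.558 and 0.455 CPM, the groups overlapped, and the log2 fold change of 0.32 had a 95% interval of -0.35 to 0.99 (adjusted p = 0.523).

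In all, 5 of the 10 genes were past the threshold in KO UT against WT UT, 3 higher (Ifnar1, Ifnar2 and Ifngr1) and 2 lower (Jak2 and Usp18). Over all genes tested 26.2% were past it, 15.3% higher and 10.9% lower, so genes past the threshold are common in this comparison. With the scaling of the relative log expression method the balance over all genes turned to 1852 higher and 3005 lower, against 2378 higher and 1686 lower with TMM, and the median gene moved by -0.073. None of the 10 also passed the fold criterion of the study (an absolute log2 fold change above 1), which 2.04% of all genes did, and the count was 0 at an unadjusted p under 0.05 too. The count of 5 was 8 when only the WT UT and KO UT libraries were fitted and 3 with the share of short RNAs as a covariate. Over all genes 4670 of 14859 were past the threshold in the first of these fits and 995 of 15523 in the second.

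**Figure D1:**
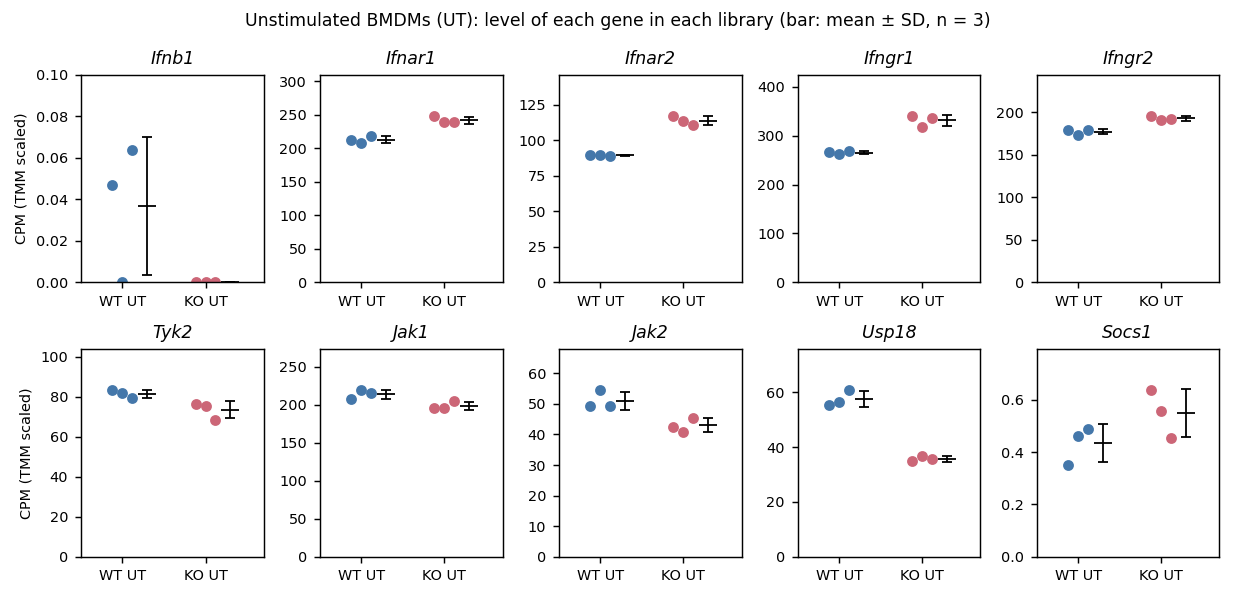
Level of each gene in CPM in the 3 WT UT (blue) and 3 KO UT (red) libraries, each panel with its own linear axis from 0, with the mean and SD beside the points. Usp18 is lower in every KO UT library, Ifnar1, Ifnar2 and Ifngr1 are higher, and Ifnb1 stays at or under 3 counts in every library.

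The genes around this pathway were read in 5 further lists. Over all genes tested 26.2% were past the threshold in KO UT against WT UT, 15.3% higher and 10.9% lower. Of 35 interferon-stimulated genes, 31 were lower and 0 higher in KO UT (0 higher also at an unadjusted p under 0.05 and with DESeq2), with a median log2 fold change of -0.61 against 0.0013 over all genes tested, and 3 of them also passed the fold criterion. The leading genes of that list were Ifi44 (48.4 to 53.9 CPM in WT UT, 15.7 to 17.9 in KO UT, log2 fold change -1.60, SE 0.071), Irf7 (159 to 163 against 69.3 to 70.6 CPM, -1.21, SE 0.056) and the antiviral gene Oasl1 (22.5 to 22.7 against 9.61 to 10.7 CPM, -1.15, SE 0.068). The count of 31 stayed at 31 without any 1 library and was 23 with the share of short RNAs as a covariate. With that covariate 279 of all 15523 genes were lower, against 1686 without it.

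Of 10 STAT and IRF factors, 8 were lower and 0 higher in KO UT (0 higher at an unadjusted p under 0.05 and with DESeq2; median -0.22). Stat2 measured 143 to 145 CPM in WT UT and 85.9 to 86.5 CPM in KO UT (log2 fold change -0.74, SE 0.050), and Irf9 fell by 0.24 on the log2 scale (SE 0.057, adjusted p = 0.00201). Stat2 and Irf9, which act together downstream of the type I receptor, are also in the list of interferon-stimulated genes. The count of 8 fell to 5 without KO UT replicate 2, and to 1 with the share of short RNAs as a covariate. Over all 15523 genes 1686 (10.9%) were lower, and 279 with the covariate.

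Of 21 genes of interferon beta induction, 6 were lower and 2 higher in KO UT (median -0.087), against 10.9% and 15.3% of all genes. The lower genes with the smallest p were Irf7, the RNA sensor Ddx58 (138 CPM ± 1.5 SD against 88.6 ± 4.8, n = 3 each, log2 fold change -0.64) and the RNA sensor Ifih1 (90.9 ± 0.81 against 57.5 ± 2.0, n = 3 each, -0.66), which are themselves in the list of interferon-stimulated genes. The 2 higher genes were Cd14 (0.46, adjusted p = 2.03e-07) and Ly96 (0.45, adjusted p = 7.50e-05), which present LPS to Toll-like receptor 4. Ticam1 was at -0.35 (adjusted p = 0.0482) and Traf3 at -0.23 (adjusted p = 0.00821), while Tlr4 (-0.15), Tbk1 (-0.028) and Irf3 (0.17) did not pass the threshold (adjusted p = 0.0750, 0.729 and 0.0557). Cd14, Ly96, Ticam1, Traf3, Tlr4, Tbk1 and Irf3 were chosen for naming after their values were seen. The count of 6 fell to 3 without WT UT replicate 2 or KO UT replicate 1, and with the share of short RNAs as a covariate 1 was lower and 0 were higher. With that covariate 279 of all 15523 genes were lower and 716 higher, against 1686 and 2378 without it.

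Of 19 other feedback genes and phosphatases, 7 were lower and 0 higher in KO UT (0 higher at an unadjusted p under 0.05 and with DESeq2), with a median of -0.11. Over all genes tested 10.9% were lower and 15.3% higher, 26.2% in either direction, for comparison with both lists of this paragraph. Isg15, whose product stabilises Usp18 in human cells and is itself interferon-stimulated, measured 36.3 to 38.8 CPM in WT UT and 19.6 to 20.3 CPM in KO UT (log2 fold change -0.91, SE 0.063). Socs4 (-0.31, SE 0.073) and Socs5 (-0.28, SE 0.073) were also lower, and the count of 7 fell to 4 without WT UT replicate 2 and to 1 with the covariate. Of 13 other cytokine receptors that use these kinases 12 passed the filter, of which 4 were lower and 2 higher (median -0.012), with Il6ra at -0.36 (SE 0.058), the shared beta chain Csf2rb at -0.28 (SE 0.051) and Il10rb at 0.42; with the covariate 1 was lower and 0 were higher.

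**Figure D2:**
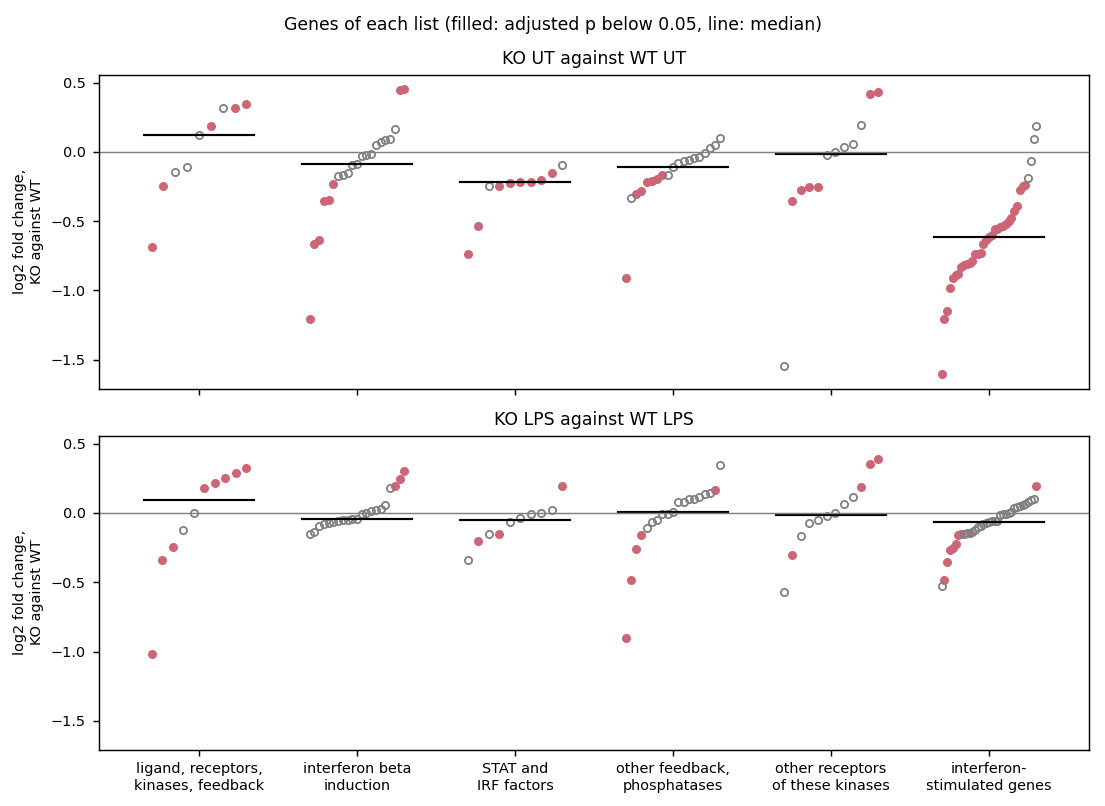
log2 fold change of KO against WT for each gene of 6 lists, without stimulation (top) and after LPS (bottom), filled where the adjusted p is below 0.05, with the list median as a line; Ifnb1 is left out of the top panel because its UT counts are at or under 3. Of the 35 interferon-stimulated genes 31 are filled and below 0 in the top panel, where the other 4 are open and reach up to 0.19; the median of that list is -0.61 in the top panel and -0.065 in the bottom panel.

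LPS changed the order of the 10 genes. Compared per kilobase of exon, the order at rest in WT UT was led by Ifngr1 (93.2 CPM per kb ± 1.2 SD, n = 3), followed by Ifngr2 (47.1 ± 0.86), Ifnar1 (35.9 ± 0.87), Jak1 (29.6 ± 0.84), Ifnar2 (26.9 ± 0.093), Usp18 (20.6 ± 1.0), Tyk2 (11.8 ± 0.29), Jak2 (10.1 ± 0.58), Socs1 (0.149 ± 0.025) and Ifnb1 (0.0491 ± 0.044). Neighbours in this order did not overlap between libraries in either UT group, and in KO UT the order was the same but for Ifnar2 (34.2 ± 0.92), which stood above Jak1 (27.5 ± 0.73). In WT LPS the order was led by Usp18 (422 CPM per kb ± 15) and Jak2 (238 ± 24), followed by Ifnar1 (132 ± 3.6), Ifnar2 (99.0 ± 3.3), Ifngr2 (91.3 ± 1.7), Jak1 (44.5 ± 5.3), Ifngr1 (42.5 ± 1.4), Tyk2 (22.9 ± 0.42), Socs1 (12.6 ± 1.3) and Ifnb1 (2.49 ± 0.36), where only Jak1 and Ifngr1 overlapped. In KO LPS the order was the same except that Ifngr1 (52.0 ± 1.3) and Jak1 (51.7 ± 2.5) changed places, a pair that overlapped, as did Ifnar2 (112 ± 4.4) and Ifngr2 (109 ± 4.3).

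All 10 genes passed the threshold for the response to LPS in WT and all 10 in KO, with 9 higher and 1 lower in each genotype. Such responses were the rule, since 73.7% of all genes tested passed it in WT (38.2% higher and 35.5% lower) and 73.1% in KO (35.3% higher and 37.8% lower). In WT 7 of the 10 and in KO 8 of the 10 also passed the fold criterion, against 38.0% and 37.1% of all genes. Each of these counts includes Ifnb1. It passed the filter on low counts only through its LPS libraries, so its rise with LPS was implied by the filter and adds nothing to the counts.

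Ifnb1 rose to 44, 40 and 46 counts in WT LPS (1.64, 1.80 and 2.17 CPM) and to 26, 23 and 24 counts in KO LPS (0.997, 0.863 and 0.878 CPM). Measured against the floor of 3 counts per library in UT, its mean was 28.0-fold higher in WT LPS and at least 11.0-fold higher in KO LPS. Since WT UT libraries held up to 3 counts, the WT value is not a strict lower bound. Despite this rise, Ifnb1 had the lowest level per kb of the 10 genes in both LPS groups, at 2.49 and 1.22 CPM per kb.

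After LPS 3 of the receptor chains rose and 1 fell. Ifnar1 rose to 807, 776 and 767 CPM in WT LPS and 968, 979 and 1002 CPM in KO LPS, log2 fold changes of 1.88 (SE 0.050) and 2.02 (SE 0.050). Ifnar2 rose by 1.88 (SE 0.053) in WT and 1.72 (SE 0.052) in KO, and Ifngr2 by 0.96 and 1.08 (SE 0.050 each). Ifngr1 was the 1 gene that fell, to 121, 125 and 117 CPM in WT LPS and 151, 149 and 144 CPM in KO LPS, log2 fold changes of -1.13 (SE 0.052) and -1.16 (SE 0.051).

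Among the kinases, Jak2 rose by 4.55 on the log2 scale (SE 0.074) in WT and 4.80 (SE 0.075) in KO, far more than Tyk2 (0.95 and 0.98, SE 0.057 and 0.058) and Jak1 (0.59 and 0.91, SE 0.064 each). The feedback inhibitors rose by 4.35 (SE 0.058) and 4.80 (SE 0.061) for Usp18 and by 6.37 (SE 0.14) and 5.72 (SE 0.15) for Socs1, in WT and KO in that order. For these 9 genes the adjusted p was 4.19e-09 or less in both genotypes, and with upper-quartile scaling, which moved the median gene by -0.18 in both LPS comparisons, the count of genes past the threshold was again 10 in each genotype.

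**Figure D3:**
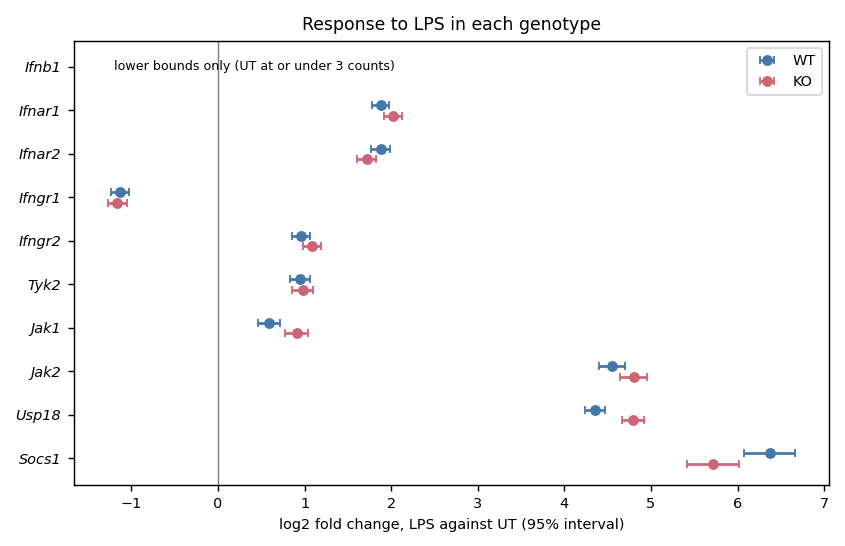
log2 fold change of LPS against UT with its 95% interval in WT (blue) and KO (red); Ifnb1 is given in the text only as a lower bound. Ifngr1 lies below 0 in both genotypes, while Jak2, Usp18 and Socs1 lie above 4 in both.

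After LPS the genotypes differed in the ligand. Each KO LPS library had fewer Ifnb1 counts than each WT LPS library, 23 to 26 against 40 to 46, and the mean level was 0.913 CPM ± 0.073 (SD, n = 3) against 1.87 ± 0.27 (n = 3). The log2 fold change was -1.02 (SE 0.29, 95% interval -1.61 to -0.43, adjusted p = 0.0174). Across the other settings its adjusted p ran from 0.0125 to 0.484, and the call was lost under the older form of the quasi-likelihood test (adjusted p = 0.0806), with the share of short RNAs as a covariate (-0.68, adjusted p = 0.484), and without WT LPS replicate 3 (-0.90, adjusted p = 0.0844), KO LPS replicate 2 (adjusted p = 0.0606) or KO LPS replicate 3 (adjusted p = 0.0628). Tnf was at a log2 fold change of -1.04 (SE 0.056) in the same comparison.

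Both induced inhibitors were lower in KO LPS. Usp18 measured 1190, 1212 and 1129 CPM in WT LPS and 998, 1010 and 970 CPM in KO LPS, a log2 fold change of -0.25 (SE 0.050, adjusted p = 0.00126) without overlap of the groups. Socs1 measured 32.1, 38.7 and 38.9 CPM in WT LPS and 28.4, 29.1 and 29.2 CPM in KO LPS, also without overlap (-0.34, SE 0.079, adjusted p = 0.00488). With the share of short RNAs as a covariate Socs1 was at -0.096 (adjusted p = 0.721).

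Ifnb1 and Socs1 were the 2 genes that rose from near 0 with LPS and were lower in KO LPS, and the 250 bases before their start sites are shown for that reason, from RefSeq (GRCm38.p6) and before the RefSeq start, 5′ to 3′ on the strand of the gene, with motif matches in capitals. The Ifnb1 window is chr4:88522795-88523044 and the Socs1 window chr16:10785537-10785786, both on the minus strand.
Ifnb1: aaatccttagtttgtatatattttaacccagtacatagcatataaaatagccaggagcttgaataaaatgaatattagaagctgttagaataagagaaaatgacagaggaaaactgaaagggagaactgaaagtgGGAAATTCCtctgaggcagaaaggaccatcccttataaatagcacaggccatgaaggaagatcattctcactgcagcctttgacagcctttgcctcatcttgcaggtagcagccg
Socs1: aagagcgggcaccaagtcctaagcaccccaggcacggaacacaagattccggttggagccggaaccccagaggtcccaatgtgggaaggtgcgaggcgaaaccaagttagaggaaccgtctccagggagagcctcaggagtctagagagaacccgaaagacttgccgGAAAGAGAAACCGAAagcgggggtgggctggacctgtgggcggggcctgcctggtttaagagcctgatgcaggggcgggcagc
The motifs searched on both strands were GAAANNGAA (core of the interferon-stimulated response element), TTCNNNGAA (core of the gamma-activated site) and GGANNTTCC (core of a kappa B site). The Ifnb1 window holds GGANNTTCC from 115 to 107 bases before the start, and the Socs1 window holds GAAANNGAA from 83 to 75 and again, with an overlap, from 77 to 69 bases before the start. Such matches occurred in 3.59% of 32851 promoter windows of the same length for GGANNTTCC, in 7.13% for GAAANNGAA and in 7.02% for TTCNNNGAA. Of the 9 genes with a RefSeq promoter entry, Ifngr2 also held GGANNTTCC (75 to 67 bases before the start, minus strand of the window) and Ifnar2 held TTCNNNGAA (214 to 206). The remaining windows (Ifnar1, Ifngr1, Tyk2, Jak1 and Jak2) held none of these letters, and Usp18 had no entry. These matches describe the sequence and are not measured binding sites.

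The 4 receptor chains were higher in KO LPS. Of the 6 macrophage markers, 3 were also past the threshold and higher there, and 3 were not past it. Ifnar1 differed by 0.33 on the log2 scale (SE 0.048, adjusted p = 2.67e-05), Ifngr1 by 0.29 (SE 0.053, adjusted p = 3.87e-04) and Ifngr2 by 0.25 (SE 0.049, adjusted p = 8.75e-04). Ifngr2 measured 351, 342 and 338 CPM in WT LPS and 392, 411 and 425 CPM in KO LPS. Ifnar2 measured 322, 342 and 324 CPM in WT LPS and 358, 376 and 387 CPM in KO LPS (0.18, SE 0.051, adjusted p = 0.0157), a call that was lost without KO LPS replicate 2 (adjusted p = 0.0536) or replicate 3 (adjusted p = 0.0800). The groups did not overlap for any of the 4 chains, though the share of all genes without overlap was not counted. Il10rb between Ifnar2 and Ifnar1 was at 0.19 (SE 0.051, adjusted p = 0.0141).

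Among the kinases after LPS, Jak1 measured 364, 307 and 293 CPM in WT LPS and 363, 363 and 395 CPM in KO LPS, so that WT LPS replicate 1 lay among the KO LPS libraries. Its log2 fold change was 0.22 (SE 0.064, adjusted p = 0.0225), and it was lost without WT LPS replicate 2 (adjusted p = 0.111), WT LPS replicate 3 (adjusted p = 0.117) or KO LPS replicate 3 (adjusted p = 0.119). The share of short RNAs in the 3 WT LPS libraries was 4.04, 5.36 and 6.89% for replicates 1, 2 and 3, and with it as a covariate the Jak1 value was -0.055 (adjusted p = 0.689). Jak2 measured 1315, 1207 and 1074 CPM in WT LPS and 1198, 1144 and 1257 CPM in KO LPS, with a log2 fold change of 0.00079 (95% interval -0.13 to 0.13, adjusted p = 0.996). With the same covariate Jak2 was at -0.26 (adjusted p = 0.00299). Tyk2 measured 160, 154 and 157 CPM in WT LPS and 135, 149 and 149 CPM in KO LPS, and its log2 fold change of -0.12 (95% interval -0.24 to -0.0040) missed the threshold (adjusted p = 0.165).

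Thus 8 of the 10 genes were past the threshold in KO LPS against WT LPS, 5 higher (Ifnar1, Ifnar2, Ifngr1, Ifngr2 and Jak1) and 3 lower (Ifnb1, Usp18 and Socs1). Over all genes 14.4% were past it, 7.61% higher and 6.76% lower. Without KO LPS replicate 3 the number past the threshold was 5 of the 10. The fold criterion left 1 of the 10, Ifnb1, against 1.28% of all genes.

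**Figure D4:**
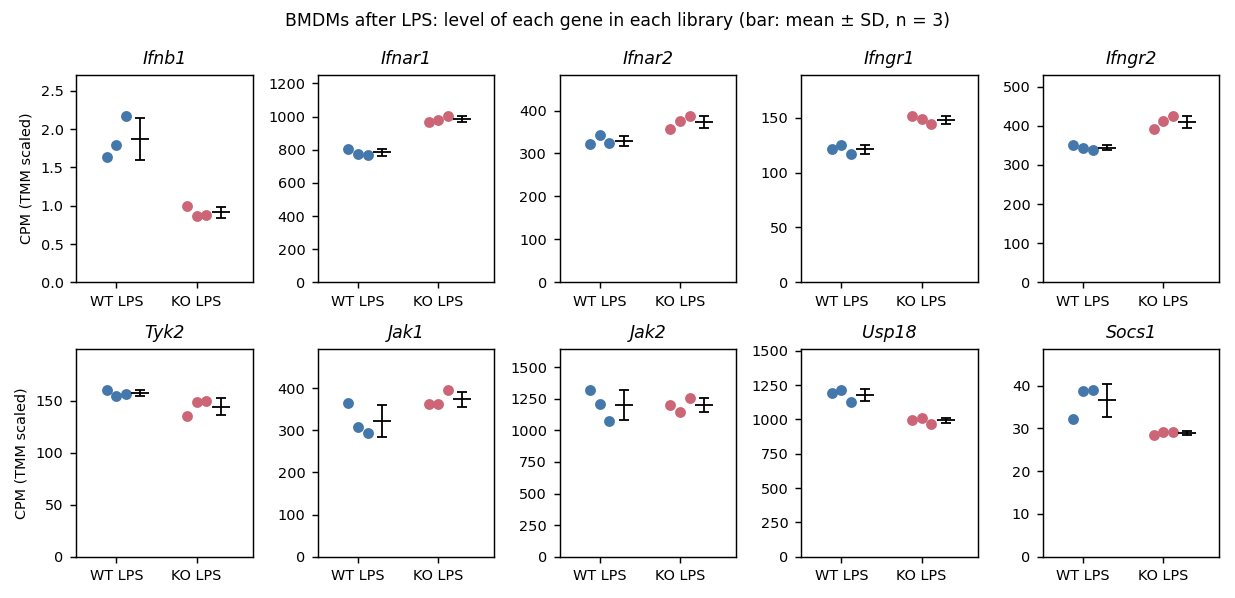
Level of each gene in CPM in the 3 WT LPS (blue) and 3 KO LPS (red) libraries, each panel with its own linear axis from 0, with the mean and SD beside the points. Ifnb1, Usp18 and Socs1 are lower in every KO LPS library, the 4 receptor chains are higher, and the groups overlap for Jak1 and Jak2.

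Of the 35 interferon-stimulated genes, 8 were lower and 1 was higher in KO LPS, with a median log2 fold change of -0.065 against -0.0074 over all genes. The share past the threshold over all genes was 14.4% here and 26.2% in UT. In the interaction of genotype and LPS, which tests the difference between the UT and LPS values, 30 of the 35 were past the threshold with a larger rise in KO, against 7.34% of all genes higher and 16.6% in either direction. This count was 28 to 31 without any 1 library and 11 with the share of short RNAs as a covariate. With that covariate 173 of the 15523 genes tested were past the threshold and higher, against 1140 without it. The UT libraries in which 31 of the list were lower also enter the interaction, so the count of 30 is not independent of that difference. The list was also chosen with earlier results of these data known, and the count of 30 is a description. The count of 8 became 5 with a replicate block, 14 with the share of short RNAs as a covariate, and 4 or 5 without any 1 of the WT UT and KO LPS libraries, KO UT replicate 1 or 2, or WT LPS replicate 2. Isg15 had the lowest value among those past the threshold, -0.49 (SE 0.052, adjusted p = 2.55e-07), at 845 CPM ± 37 (SD, n = 3) in KO LPS. In the induction list 3 genes were higher and 0 lower (1 lower at an unadjusted p under 0.05, 0 with DESeq2), namely Tlr4 (0.24), Irf5 (0.20) and Jun (0.30), and this became 0 higher without KO LPS replicate 3 and 1 lower without WT LPS replicate 3. Of the STAT and IRF factors 1 was higher and 2 were lower (Stat2, -0.15, and Stat5a, -0.20), a count of lower factors that was 1 with a replicate block and 0 or 1 without any 1 library other than KO UT replicate 3 and WT LPS replicate 3. The count of 1 higher became 0 without WT LPS replicate 2 or 3 or KO LPS replicate 3 in both of these lists, and 3 among the interferon-stimulated genes without WT LPS replicate 1. Of the other feedback genes and phosphatases 1 was higher (0 with a replicate block, 0 without WT LPS replicate 3 or any KO LPS library, and 4 without WT LPS replicate 1) and 4 were lower (2 without WT LPS replicate 2 or KO LPS replicate 1). Of the other receptors 3 were higher and 1 was lower, the latter 0 without WT LPS replicate 2 or 3 or KO LPS replicate 1 or 3, and 2 without KO LPS replicate 2. With the share of short RNAs as a covariate, the counts higher and lower were 2 and 2 for the induction list, 0 and 4 for the STAT and IRF factors, 0 and 3 for the feedback genes and phosphatases, and 1 and 0 for the other receptors. Over all 15523 genes they were 678 and 845 with that covariate, against 1181 and 1049 without it. Jun, Irf5, Tlr4 and Stat5a were named after their values were seen.

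**Figure D5:**
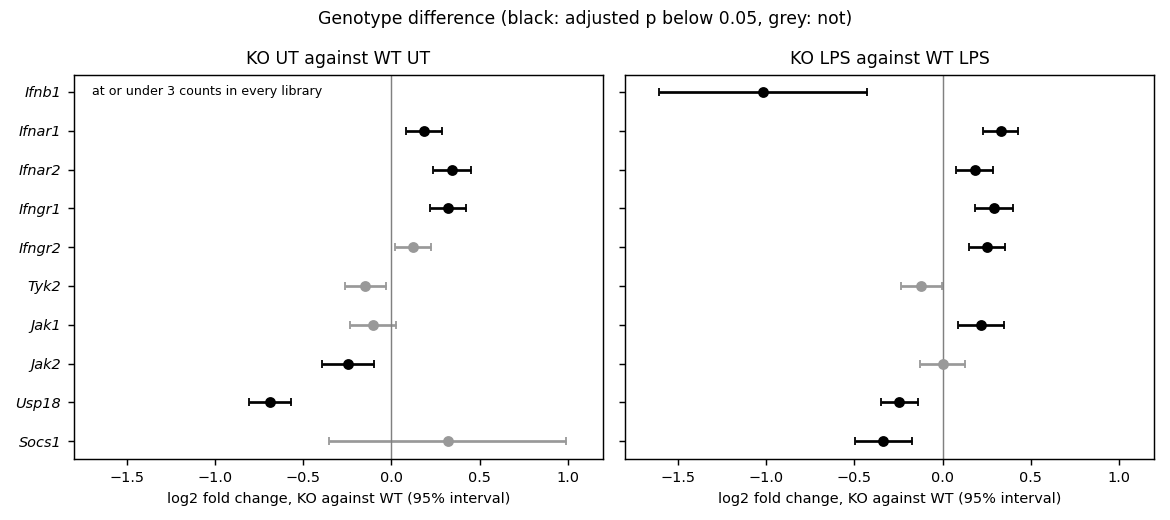
log2 fold change of KO against WT with its 95% interval for each gene, without stimulation (left) and after LPS (right), in black where the adjusted p is below 0.05. Usp18 lies below 0 in both panels and Ifnar1, Ifnar2 and Ifngr1 above 0 in both, while Ifnb1 lies at -1.02 after LPS and could not be compared at rest.

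Whether the response to LPS itself differed between genotypes was tested as the interaction of genotype and LPS, which uses the same libraries as the comparisons above. The threshold was passed by 2 of the 10 genes, both higher, against 16.6% of all genes (7.34% higher, 9.21% lower), and by 0 with the fold criterion (0 also at an unadjusted p under 0.05), against 1.91% of all genes. With the scaling of the relative log expression method the balance over all genes was 1986 higher and 1104 lower, against 1140 higher and 1430 lower with TMM. The count of 2 of the 10 was 5 with that scaling, 5 with DESeq2, 0 with the share of short RNAs as a covariate and 1 to 4 when 1 library was left out (4 without WT LPS replicate 1, 1 without WT LPS replicate 2 or KO LPS replicate 3). Usp18 rose 0.44 more on the log2 scale in KO than in WT (SE 0.076, adjusted p = 2.22e-04), from a lower level in UT to a level in LPS that was also lower, and it missed the threshold with the share of short RNAs as a covariate (0.26, adjusted p = 0.464). Jak1 rose 0.32 more (SE 0.090, adjusted p = 0.0139), a call lost without WT LPS replicate 2 (adjusted p = 0.0535) or KO LPS replicate 3 (adjusted p = 0.0529), and with the share of short RNAs as a covariate the value was -0.47 (adjusted p = 0.0849).

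For the other genes the interaction did not pass the threshold. It was 0.14 (95% interval 0.0037 to 0.28) for Ifnar1, -0.16 (-0.31 to -0.013) for Ifnar2, -0.030 (-0.18 to 0.12) for Ifngr1 and 0.13 (-0.014 to 0.27) for Ifngr2. It was 0.027 (-0.14 to 0.19) for Tyk2, 0.25 (0.053 to 0.44) for Jak2 and -0.65 (-1.35 to 0.040) for Socs1. For Ifnb1 no interaction value is given because its UT counts are at or under the floor (adjusted p = 0.413).

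The genes whose log2 CPM followed the ligand and the inhibitors most closely over the 12 libraries were, for Ifnb1, the protease Adamts4 (Pearson r = 0.996), the transporter Abca7 (0.995) and the phosphatase-like Ptpn23 (0.994). For Usp18 they were the interferon-stimulated genes Ifit1bl1 and Rsad2 (1.00 each), and for Socs1 the enzyme Gch1, Rcl1 and the chemokine Ccl7 (0.999 each). These values describe the step between UT and LPS that the 12 libraries share: 1161, 2278 and 2260 genes of about 10855 searched exceeded a correlation of 0.95 with Ifnb1, Usp18 and Socs1.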

How the data were processed

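Total RNA of the BMDMs was sequenced from stranded libraries. Per the submitters' processing notes and the study's methods, reads were checked with FastQC 0.11.9, aligned to GRCm38 with HISAT2 2.1.0, handled with SAMtools 1.17 and counted per gene with featureCounts 2.0.0; the deposited values are raw read counts for 12 libraries. The handling of multimapping reads, the strand setting and the release of the annotation are not given in the sources used here. The members and gene lists were chosen with earlier results of these data known.

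Identifiers were matched to GENCODE by their stable part (48144 of 48526 genes; the rest held 0.122% of counts). Genes with low counts were removed by group (at least 10 counts, 15 in total), libraries were scaled by TMM, and 4 group means were fitted over all 12 libraries with edgeR 4.0.16 (quasi-likelihood test, robust; R 4.3.3). Past the threshold means a Benjamini-Hochberg adjusted p below 0.05 over all 15523 genes tested; the fold criterion adds an absolute log2 fold change above 1. CPM values use TMM-scaled library sizes, and values per kb the union of exons. The study compared conditions pairwise with DESeq2; this (1.42.0) and further scalings, filters and covariates were run as alternatives. The test was checked on simulated data. Intervals and floors cover counting error or the spread between libraries only, and a floor of 3 counts limits what could be seen in a library with totals from 26154533 to 36423921.

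Named genes were the 10 members, Tnf, the 3 genes with the smallest p past the threshold in KO UT against WT UT of each list and any list gene inside the receptor cluster, and the 3 protein-coding genes (mean CPM not below 1) most like Ifnb1, Usp18 and Socs1, by log2(CPM + 0.5); genes named outside this rule are marked in the text, and some genes that the rule picks are not reported here. The labels give each library a batch equal to its replicate number, which pairs libraries across groups by label; deviations of same-numbered libraries correlated between -0.063 and 0.037 over 18 pairs, with 0 above 0.1. No pair of libraries agreed within sampling noise. Figures were drawn with matplotlib 3.10.9.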

Additional observations from a re-analysis of the deposited data

Results flagged for a closer look

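The response to LPS differed between the genotypes, by the interaction of genotype and LPS in edgeR, for 18 of 34 genes looked at (the interferon beta, receptor, kinase and feedback genes, Tnf, and the pathway list genes named in the report), with 14 higher and 4 lower. Of the pathway list genes, those named by rule were picked for a small p in KO UT against WT UT, whose libraries also enter the interaction, and 10 (Cd14, Ly96, Ticam1, Traf3, Tlr4, Tbk1, Irf3, Irf5, Jun and Stat5a) were named after their values were seen, so this count is a description and is not to be read against the share over all genes. The values are KO response minus WT response on the log2 scale. Of the interferon beta, receptor, kinase and feedback genes these were Jak1 (0.32, adjusted p = 0.0139) and Usp18 (0.44, adjusted p = 2.22e-04). Tnf had a smaller response in KO (-0.38, adjusted p = 0.00807). Among the STAT and IRF factors the values were 0.59 for Stat2 and 0.24 for Irf9 (adjusted p = 2.00e-06 and 0.0411). Among interferon beta induction genes and other interferon-stimulated genes they were 1.15 for Irf7, 0.70 for Ddx58, 0.58 for Ifih1, 0.43 for Isg15, 1.34 for Ifi44 and 1.00 for Oasl1 (adjusted p = 6.64e-04 or less). The LPS co-receptor genes Cd14 (-0.53, adjusted p = 1.78e-05) and Ly96 (-0.42, adjusted p = 0.00848) had a smaller response in KO, and Tlr4 was at 0.39 (adjusted p = 0.00300).

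Socs4 differed by 0.41 (adjusted p = 0.00900), with a log2 response of -0.13 in WT and 0.28 in KO. Among the other receptors Il6ra differed by 0.71 (adjusted p = 2.70e-06), with responses of -0.83 in WT and -0.12 in KO, Csf2rb by 0.26 (adjusted p = 0.0139), and Il10rb by -0.23 (adjusted p = 0.0298). The 4 groups enter each of these values, so they are not independent of the genotype differences given in the report. No explanation of these differences was tested.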

How the results depend on the processing

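Of the values of the 10 genes under 11 other settings, with the lowest and highest value when 1 library was left out, 595 kept their side of the threshold (12 of these changed sign while past it in neither fit), 21 gained and 13 lost the threshold, and 5 turned direction. All 5 used the share of short RNAs as a covariate. That share was higher in KO UT than in WT UT and lower in KO LPS than in WT LPS, without overlap of the libraries. It thus cannot be told apart from genotype at rest, after LPS or in the interaction. With it Jak1 was at 0.42 in KO UT against WT UT, -0.055 in KO LPS against WT LPS and -0.47 in the interaction. Jak2 was at 0.25 and -0.26 in the first 2 comparisons. The cause was not tested. The count past the threshold in KO UT against WT UT (5) was 8 when only the groups compared were fitted, 3 with the covariate, 0 with the fold criterion and 4 to 7 when 1 library was left out. In KO LPS against WT LPS (8) it was 1 with the fold criterion and 5 to 8 when 1 library was left out, the lowest without KO LPS replicate 3. In the interaction (2) it was 5 with DESeq2, 5 with the scaling of the relative log expression method, 0 with the covariate, 0 with the fold criterion and 1 to 4 when 1 library was left out (4 without WT LPS replicate 1, 1 without WT LPS replicate 2 or KO LPS replicate 3). For the LPS responses it was 10 in each genotype under these settings, except 9 where a mean CPM of at least 1 was required, which removes Ifnb1, and 7 in WT and 8 in KO with the fold criterion. With the replicate block the counts were 5, 8, 10, 10 and 2, as without it, and it changed no call of the 10 genes. The older quasi-likelihood test was added after the data were seen. DESeq2 gave no adjusted p for 6 values.

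Depth limits Ifnb1, Socs1 and the other interferon genes at rest: with at most 3 Ifnb1 counts in a UT library, a resting difference in the ligand could not be seen. Each group holds 3 libraries from 1 time point, and protein, secreted interferon and receptor surface levels were not measured here.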
